A study of Mus musculus with 6 samples.

Results

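The 82 genes described here encode the proteins of the cytosolic ribosome in mouse. They were chosen by symbol alone, as the rows named Rps or Rpl with a number, optionally followed by a, x or l and then by a digit (as in Rps3a1 and Rpl22l1), together with Rpsa and the stalk genes Rplp0, Rplp1 and Rplp2. The rule took 82 of the 17666 genes in the table, 32 of the small subunit and 50 of the large subunit. In the GENCODE M21 annotation 80 of them are protein coding, and Rps4l and Rpl32l are processed pseudogenes. No measured value entered the symbol rule, but the set itself was chosen with earlier results of these data known.

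RNA sequencing measured the auditory nerve of young adult mice aged 1.5 to 2.5 months. The groups were 3 mice with a Cfb knockout (Cfb encodes complement factor B, the protease that drives the alternative pathway of complement) and 3 wildtype mice, and the sample names of both groups carry C57. Each sample was nerve tissue dissected from the cochlea, with the 2 cochleas of 1 mouse pooled, so the 3 samples of a group are separate mice. The labels name no allele, promoter or Cre for the knockout, and no treatment in either group. The values are normalized counts, meaning gene counts that the authors scaled between samples and rounded, and they sum to between 38675077 and 41496282 per sample. Those totals are set by the scaling, so the depth of each sample is unknown. Cfb itself had normalized counts of 336, 351 and 376 in libraries labelled knockout, against 55, 39 and 116 in libraries labelled wildtype. The targeted gene was higher in the libraries labelled knockout (log2 fold change 2.47, SE 0.38, limma adjusted p = 0.107), which goes against the label. The authors' deposited table gives Cfb a signed fold of 5.08, meaning higher in knockout, with a false discovery rate of 1.8e-06. The labels do not say which part of Cfb was removed. Below, knockout and wildtype are the labels of the libraries, and every direction is one between labels.

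A cytosolic ribosome is built from ribosomal RNA and a set of proteins that most cells make together. The small subunit reads the mRNA, the large subunit forms the peptide bond, and the stalk of the large subunit recruits the elongation factors. In mammals most of these mRNAs begin with a C followed by a run of pyrimidines, the terminal oligopyrimidine start, through which LARP1 and the kinase mTOR set their translation. The genes are short, and many have near-identical processed copies elsewhere in the genome. In peripheral nerve they are expressed by glia, neurons, fibroblasts and blood cells alike, so they mark no cell type.

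The stretches around the annotated start of transcription are shown for the genes that the results turn on, to let the start be read beside the values. Each is 30 bases of the sense strand from RefSeq (GRCm38.p6), the first transcribed base is base 16, and capitals mark a C followed by at least 4 bases that are C or T, with its first C within 5 bases of the start.
Rpl15: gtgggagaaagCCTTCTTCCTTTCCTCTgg
Rpl19: tgaccaaacgCCCTCactgcgcatgtgcgc
Rps26: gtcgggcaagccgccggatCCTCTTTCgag
Rps27l: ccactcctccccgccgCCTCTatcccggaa
Rps28: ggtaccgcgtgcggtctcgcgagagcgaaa
Rps15a: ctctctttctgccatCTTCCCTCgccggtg
Rps21: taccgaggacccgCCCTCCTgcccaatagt
Rpl13a: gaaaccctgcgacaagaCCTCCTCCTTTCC
The first 5 belong to genes called lower in the authors' deposited table, Rps15a and Rpl13a are among the genes with the least negative fold change, and Rps21 had the highest level per transcript length. Only the sense strand was searched, and overlapping runs were counted once. The windows lie at chr14:18270972-18271001 for Rpl15, chr11:98026695-98026724 for Rpl19, chr10:128626492-128626521 for Rps26, chr9:66946071-66946100 for Rps27l, chr17:33824548-33824577 for Rps28, chr7:118116133-118116162 for Rps15a, chr2:180257364-180257393 for Rps21 and chr7:45128731-45128760 for Rpl13a. Rpl19, Rps27l and Rps21 are on the plus strand and the other genes shown on the minus strand.

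Ribosomal protein mRNAs of both subunits were lower in the libraries labelled knockout than in those labelled wildtype, by a similar small amount from gene to gene. The log2 fold change of knockout over wildtype was below 0 for 80 of 82 genes, against 49.2% of all 17666 genes. The median was -0.41, and the middle of the distribution lay between quartiles of -0.50 and -0.31, while the median of all genes was 0.01. The range ran from -1.01 for Rpl24 to 0.49 for Rpl9, and the other gene above 0 was Rps15a. In bulk tissue, fewer cells of a type and less RNA per cell cannot be told apart.

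No single ribosomal protein gene passed the test across all genes. By limma with Benjamini-Hochberg adjustment over all 17666 genes, 0 of 82 had an adjusted p under 0.05, with a lowest adjusted p of 0.156, where 0.158% of all genes passed. At an unadjusted p under 0.05, 34 of 82 were past the threshold (41.5%), and all 34 were lower in the libraries labelled knockout. Of all genes, 20.0% were past it in either direction and 9.20% on the lower side. That count rests on single libraries. It was 20 (24.4%) without knockout replicate 1, where 12.6% of all genes passed in either direction and 5.87% on the lower side. Without wildtype replicate 2 it was 14 (17.1%), where 13.9% of all genes passed in either direction and 6.04% on the lower side. Without knockout replicate 2 it was 7 (8.54%), between the 10.2% of all genes in either direction and the 4.38% on the lower side. Without wildtype replicate 1 it was 50 (61.0%), against 25.8% of all genes in either direction and 12.1% on the lower side. In the authors' deposited table, 7 of 82 were lower at a false discovery rate under 0.05 (8.54%), where 2.87% of all genes were, and 0 were higher, where 3.66% of all genes were. A false discovery rate was given for 77 of the 82.

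The 3 knockout values lay below all 3 wildtype values for 36 of 82 genes (43.9%), against 14.9% of all genes, and above all of them for 0 genes, against 13.6% of all genes. Wildtype replicates 2 and 3 stood highest. Wildtype replicate 1 exceeded all 3 knockout libraries for 37 genes, wildtype replicate 2 for 71 and wildtype replicate 3 for 73. The 36 genes without overlap include core proteins of both subunits such as Rps14, Rps18, Rpl5 and Rpl10, named here after their values were seen.

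**Figure D1:**
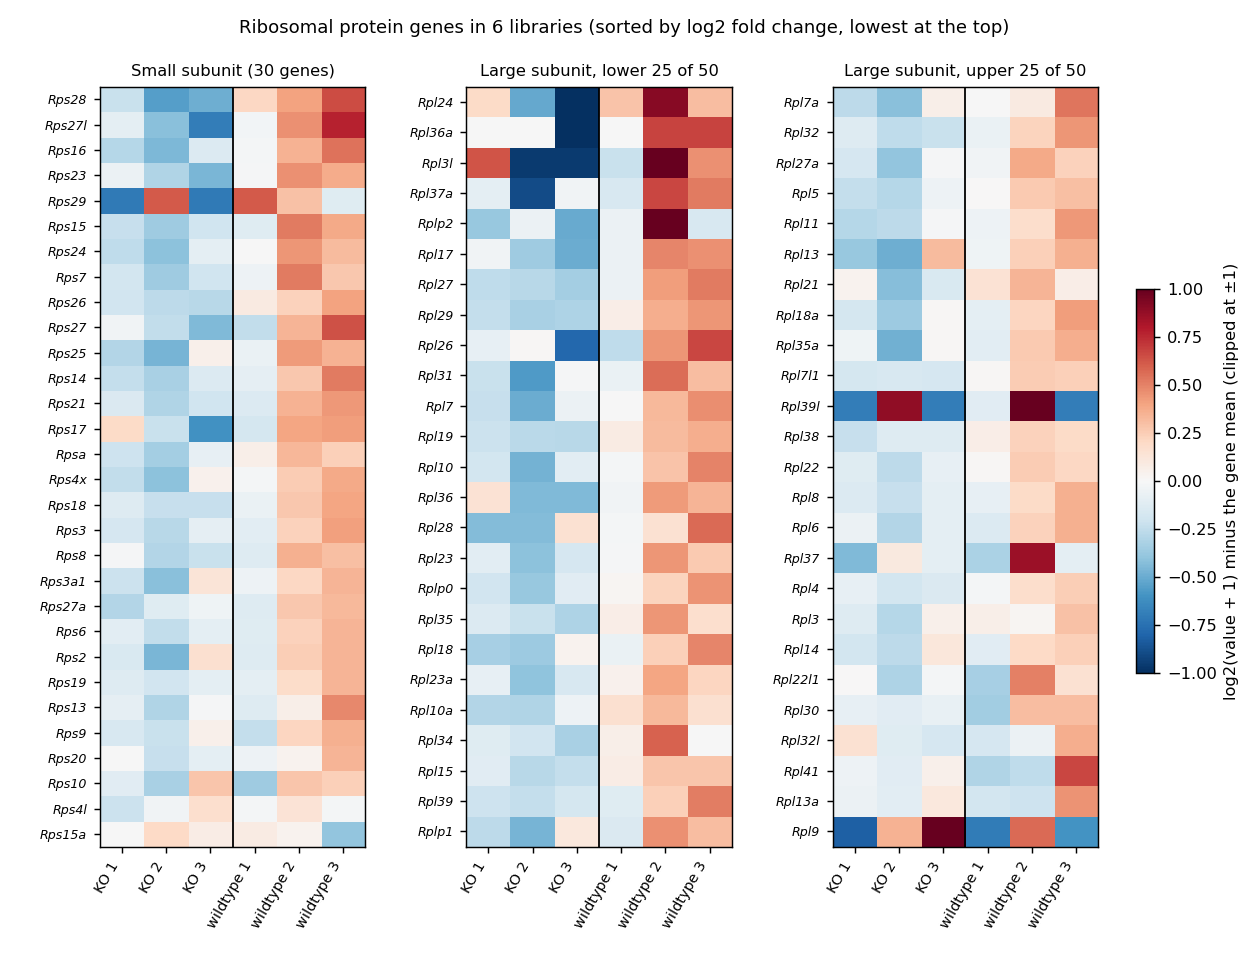
Heat maps of 80 of the 82 ribosomal protein genes, with genes as rows sorted by log2 fold change and the 6 libraries as columns (KO for knockout). The colour is log2(value + 1) minus the mean of the gene over the 6 libraries. Wildtype replicates 2 and 3 were the highest library for 30 and 47 of the 82 genes (22.5% and 27.6% of all genes). Knockout replicate 2 was the lowest library for 48 of the 82 genes (15.1% of all genes).

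In the small subunit, 31 of 32 genes were below 0, against 49.2% of all genes, with a median log2 fold change of -0.41. An unadjusted p under 0.05 in limma was reached on the lower side by 16 (50%), against 9.20% of all genes. Rps28, a small protein next to the mRNA channel, had normalized counts of 82, 65 and 68 in libraries labelled knockout and 111, 127 and 151 in libraries labelled wildtype. The groups did not overlap, and the log2 fold change was -0.84 (SE 0.22, limma adjusted p = 0.162). The authors' deposited table gives Rps28 a signed fold of -1.81 with a false discovery rate of 0.0285, and a negative fold there means lower in knockout. Rps28 spans chr17:33819027-33824562 on the minus strand of GRCm38. The window above shows no C followed by at least 4 pyrimidines within 5 bases of its annotated start.

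Rps27l is a paralogue of Rps27 and a target of p53. It had normalized counts of 732, 588 and 486 in libraries labelled knockout, against 770, 1079 and 1338 in libraries labelled wildtype. The lowest wildtype library lay just above the highest knockout library, and the other wildtype libraries were far above it. The log2 fold change was -0.80 (SE 0.24, limma adjusted p = 0.176), and the authors' deposited table gives -1.77 with a false discovery rate of 0.0376. The gene lies at chr9:66946086-66949516 on the plus strand. Rps27 had 36, 31 and 27 normalized counts in knockout and 31, 47 and 58 in wildtype, which overlapped (log2 fold change -0.48, SE 0.33). Per transcript length, the level of Rps27l was 103 ppm (its share of the library's sum of counts over length) and that of Rps27 was 5.99 ppm, as means over the 6 libraries. Of the 50-base stretches of the longest transcript, 63.1% also occur in transcripts of other genes for Rps27, and 13.7% for Rps27l. How reads with several matches were assigned is not stated, so the 2 levels may not be comparable.

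Rps26, a small-subunit protein that contacts the mRNA ahead of the start codon, had normalized counts of 358, 340 and 338 in libraries labelled knockout and 436, 480 and 542 in libraries labelled wildtype. The knockout libraries were close to each other and below every wildtype library. The log2 fold change was -0.49 (SE 0.14, limma adjusted p = 0.172), and the authors' deposited table gives -1.41 with a false discovery rate of 0.0373. Rps26 lies at chr10:128624534-128626747 on the minus strand.

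Per transcript length, Rps21 and Rps3 were among the most abundant of the small subunit, at 810 and 429 ppm. Rps21 had 3940, 3539 and 3791 normalized counts in knockout and 3961, 5528 and 5897 in wildtype, with wildtype replicate 1 only just above the knockout libraries (log2 fold change -0.43, limma adjusted p = 0.219). Rps3, which guards the mRNA entry site and also acts in DNA repair, had 9976, 9260 and 10498 in knockout against 10411, 13139 and 14899 in wildtype (log2 fold change -0.36, limma adjusted p = 0.259). The knockout and wildtype values did not overlap for Rps21, and overlapped for Rps3 through wildtype replicate 1.

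The small-subunit genes with the least negative change were Rps15a and Rps4l. Rps15a had 1775, 2042 and 1870 normalized counts in knockout, against 1887, 1827 and 1353 in wildtype (log2 fold change 0.18, SE 0.15). Wildtype replicate 3 was the lowest library for this gene, the reverse of most other ribosomal protein genes. Its longest annotated transcript is also the longest of the set, at 5179 nt. Rps4l, annotated as a processed pseudogene, had 1291, 1461 and 1685 in knockout against 1480, 1646 and 1477 in wildtype, with full overlap (log2 fold change -0.06, 0.03 without knockout replicate 1). Rps4x, the X-linked gene of the Rps4 protein, had 1369, 1226 and 1673 in knockout and 1603, 1940 and 2113 in wildtype (log2 fold change -0.41).

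In the large subunit, 49 of 50 genes were below 0, against 49.2% of all genes, again with a median log2 fold change of -0.41. An unadjusted p under 0.05 in limma was reached on the lower side by 18 (36%), against 9.20% of all genes. Rpl29, which is dispensable for life in mouse but needed for normal growth, had normalized counts of 2622, 2463 and 2487 in libraries labelled knockout and 3241, 3963 and 4197 in libraries labelled wildtype. The mean was 2524 ± 85.7 in knockout and 3800 ± 498 in wildtype (SD, n = 3 each), so the knockout libraries were tight and the wildtype libraries spread. The log2 fold change was -0.58 (SE 0.12), and its limma adjusted p of 0.156 was the lowest of the 82 genes. The authors' deposited table gives Rpl29 a fold of -1.51 with a false discovery rate of 0.00398. Rpl29 lies at chr9:106429454-106431568 on the plus strand.

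Rpl15, whose human counterpart is mutated in Diamond-Blackfan anaemia, had normalized counts of 3400, 3031 and 3111 in libraries labelled knockout and 3869, 4441 and 4459 in libraries labelled wildtype. The groups were separate (log2 fold change -0.42, SE 0.11, limma adjusted p = 0.162), and the authors' deposited table gives -1.34 with a false discovery rate of 0.0207. Rpl15 lies at chr14:18267823-18271391 on the minus strand. Rpl19, which forms part of a bridge between the subunits, had 422, 407 and 405 in knockout and 520, 612 and 631 in wildtype, also without overlap. Its log2 fold change was -0.51 (SE 0.13, limma adjusted p = 0.162), the authors' deposited table gives -1.43 with a false discovery rate of 0.0186, and the gene lies at chr11:98026710-98030492 on the plus strand.

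**Figure D2:**
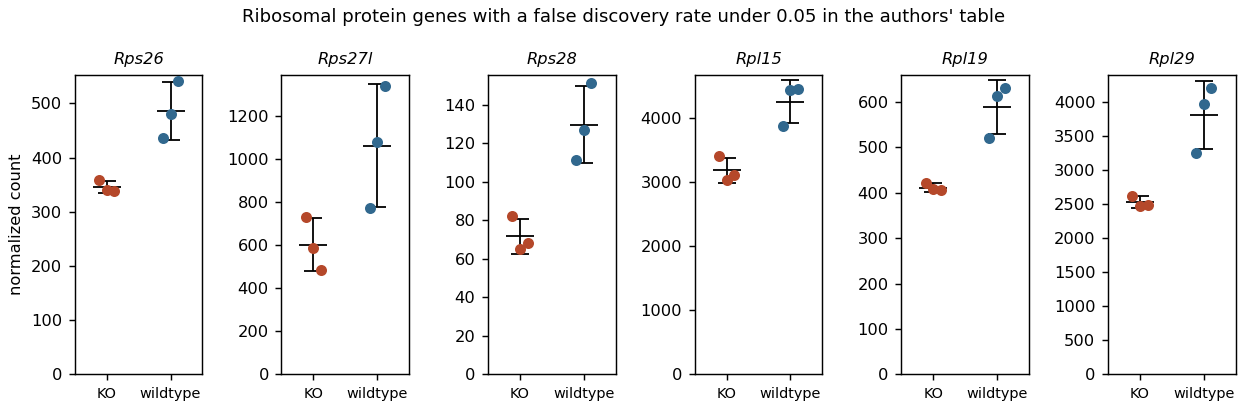
Normalized counts of 6 of the 7 ribosomal protein genes with a false discovery rate under 0.05 in the authors' deposited table, 1 panel per gene, with knockout (KO) left of wildtype. Points are libraries, and the horizontal line and whiskers are the mean and SD of 3. The groups are separate in all 6 panels, with the gap smallest for Rps27l (732 in the highest knockout library, 770 in the lowest wildtype library).

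The most abundant large-subunit mRNAs per transcript length were those of Rpl8, Rpl4, Rpl41 and the stalk gene Rplp1, at 808, 643, 563 and 500.5 ppm. Rpl8, a core protein near the catalytic centre, had 10313, 9644 and 10591 normalized counts in knockout and 10708, 12901 and 14458 in wildtype, without overlap (log2 fold change -0.31, limma adjusted p = 0.274). Rpl4, which lines the exit tunnel, had 12878, 12011 and 12326 in knockout and 13411, 15346 and 16180 in wildtype, without overlap (log2 fold change -0.27, limma adjusted p = 0.271). Rpl41, the smallest ribosomal protein, had 4266, 4099 and 4589 in knockout against 3587, 3706 and 7045 in wildtype. For Rpl41, 1 library decided the sign: wildtype replicate 3 was above every knockout library and the other wildtype libraries below, and the log2 fold change was -0.07 with it and 0.24 without it.

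The stalk genes were below 0 as well. Rplp0, the base of the stalk, had 3448, 3029 and 3648 normalized counts in knockout and 3988, 4589 and 5378 in wildtype, without overlap (log2 fold change -0.46, SE 0.14, limma adjusted p = 0.180). Rplp1 had 2820, 2456 and 3638 in knockout and 3070, 4639 and 4190 in wildtype, with overlap (log2 fold change -0.41, SE 0.20, limma adjusted p = 0.301). Rplp2, the partner of Rplp1 in the stalk dimer, had only 23, 29 and 21 in knockout and 29, 69 and 27 in wildtype. A separate row named Rplp2-ps1 held 3939, 3718 and 4039 in knockout and 3430, 4630 and 4535 in wildtype (log2 fold change -0.09), so the low value of Rplp2 stands beside a copy with far more of the assigned reads.

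The extremes of the large subunit were genes with few counts or widely spread libraries. Rpl24, the gene disrupted in the mouse mutant Belly spot and tail, had 56, 34 and 21 normalized counts in knockout and 60, 93 and 61 in wildtype, without overlap (log2 fold change -1.01, SE 0.40, limma adjusted p = 0.234). Rpl9 had 48, 109 and 197 in knockout against 52, 127 and 56 in wildtype (log2 fold change 0.49, SE 0.57, limma adjusted p = 0.664). The spread of Rpl9 within each group was larger than the difference between the groups. Rpl13a, a large-subunit protein that is also known for silencing inflammatory mRNAs in human monocytes, had 4110, 3992 and 4623 in knockout against 3776, 3721 and 5863 in wildtype. There the wildtype libraries lay on both sides of the knockout libraries, and the log2 fold change was -0.04 (SE 0.19, limma adjusted p = 0.931), with a sign that turned without wildtype replicate 3 (0.18). Rpl36, which has the shortest transcript of the set at 383 nt, had 41, 27 and 27 in knockout and 36, 50 and 47 in wildtype, with overlap (log2 fold change -0.49, SE 0.30).

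The muscle and testis paralogues had few counts, while other paralogues were well expressed. Rpl3l, the muscle paralogue of Rpl3, had 8, 2 and 2 normalized counts in knockout and 4, 11 and 7 in wildtype. Rpl39l, the testis paralogue of Rpl39, had 1, 5 and 1 in knockout against 2, 7 and 1 in wildtype. Per length, Rpl3 and Rpl39 had 72.9 and 46.6 ppm, and Rpl3l and Rpl39l had 0.294 and 0.254 ppm. Rpl22l1, the paralogue of Rpl22, had 153, 123 and 151 in knockout and 121, 217 and 170 in wildtype, with overlap (log2 fold change -0.22). Rpl7l1, a relative of Rpl7 that acts in ribosome assembly, had 1856, 1882 and 1873 in knockout and 2113, 2508 and 2477 in wildtype, without overlap (log2 fold change -0.33, SE 0.11, limma adjusted p = 0.186). Rpl36a, on the X chromosome, had 4, 4 and 1 in knockout against 4, 7 and 7 in wildtype. Rpl36al, its autosomal paralogue, which the symbol rule left out, had 1557, 1405 and 1419 in knockout and 1764, 2118 and 2711 in wildtype, and the authors' deposited table gives it -1.50 with a false discovery rate of 0.0444. The share of 50-base stretches also found in transcripts of other genes was 85.5% for Rpl36a and 24.9% for Rpl36al, so their levels may not be comparable.

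Reads from many of these genes can match copies elsewhere in the genome, and how reads with several matches were assigned is not stated in the labels. Each 50-base window of a gene's longest annotated transcript was looked up in the transcripts of other genes. The share of windows found there ran from 0%, as for Rpl3l and Rpl39l, to 95.1% for Rpl35, with a median of 44.4%. Levels and changes of genes with a high share are uncertain for that reason. The 16 genes with under 25% shared had a median log2 fold change of -0.31, the 29 genes with 25 to 50% had -0.43, and the 37 genes with 50% or more had -0.41. Among the 16 genes 14 were below 0, as were all 29, all 37 and 49.2% of all genes. All 3 knockout values lay below all 3 wildtype values for 8 of the 16, 14 of the 29 and 14 of the 37 genes. Of all genes, 14.9% were so placed. Across the 82 genes the rank correlation of the share with the log2 fold change was -0.17, and genes are not independent replicates. The 6 rows with a pseudogene symbol (such as Rplp2-ps1, which has no entry in GENCODE M21) were all below 0, with a median log2 fold change of -0.29. With each library's trend on transcript length removed, 2 of the 5 that have a length were below 0 and the median was 0.05. Rpl37rt, annotated as a transcribed processed pseudogene but not named as one, had -0.40 and is not among the 6.

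Summed over the 82 genes, ribosomal protein mRNA took 0.332%, 0.296% and 0.339% of the normalized total in knockout replicates 1, 2 and 3, against 0.347%, 0.441% and 0.449% in wildtype replicates 1, 2 and 3. Every knockout library was below every wildtype library, but wildtype replicate 1 lay much nearer to the knockout libraries than to the other wildtype libraries. The mean share was 0.322% ± 0.0233 in knockout and 0.412% ± 0.0565 in wildtype (SD, n = 3 each), a ratio of 0.782. When each count was divided by transcript length first, the 82 genes had 10113, 9197 and 10510 ppm in knockout and 10119, 11994 and 12352 in wildtype. On that scale knockout replicate 3 lay above wildtype replicate 1, so the groups overlapped, and the ratio of the means was 0.865. The sum of the small-subunit genes over that of the large-subunit genes was 0.884, 0.884 and 0.888 in knockout and 0.879, 0.933 and 0.900 in wildtype, so the subunits stayed within a narrow ratio, with wildtype replicate 2 the highest.

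**Figure D3:**
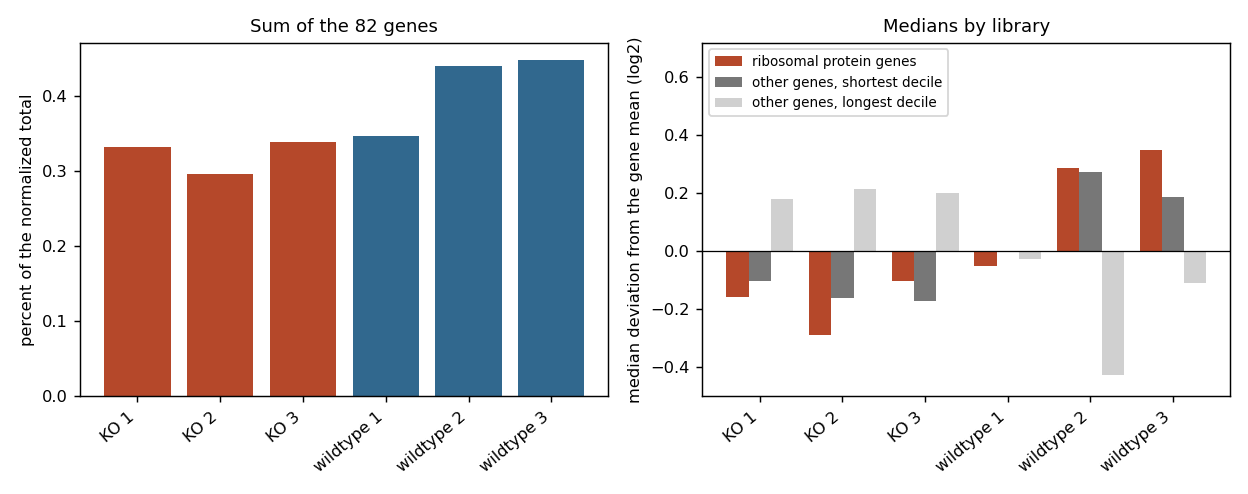
Left, the sum of the 82 ribosomal protein genes as percent of the normalized total in each library, knockout (KO) left of wildtype. Right, the median log2 deviation from the gene mean for ribosomal protein genes, the shortest decile of other genes and the longest decile of other genes. Wildtype replicates 2 and 3 are the high libraries for ribosomal protein genes (0.29 and 0.35) and for other short genes (0.27 and 0.19), and the low libraries for long genes (-0.43 and -0.11).

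Transcript length moved with the fold change across the whole table. Ribosomal protein transcripts are short: the longest annotated transcript had a median of 910 nt over the 82 genes, against 2963 nt over all 17479 genes with a length, and 79 of the 82 were shorter than the median gene. Among other genes, the median log2 fold change was -0.30 in the shortest decile by length (143 to 1187 nt) and 0.40 in the longest decile (6480 to 123179 nt). Across 17479 genes the rank correlation of log2 fold change with length was 0.41, and across the 82 ribosomal protein genes it was 0.29. Both describe genes, which share the 6 libraries and are not independent replicates.

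Beside other genes of like length, ribosomal protein genes were lower by a smaller margin. In the shortest decile, all 59 ribosomal protein genes were below 0 with a median of -0.43, against -0.30 for the other 1695 genes, of which 71.6% were below 0. Other genes of that decile with a mean of at least 100 normalized counts had a median of -0.37. An unadjusted p under 0.05 on the lower side was reached by 25 of those 59 and by 25.4% of the other genes. In the second decile (1188 to 1656 nt) 12 ribosomal protein genes had a median of -0.33 and other genes -0.21, and in the third (1657 to 2077 nt) 6 had -0.37 and other genes -0.14. The 5 genes with longer transcripts were spread, and the longest, Rps15a, was at 0.18 in a decile whose other genes had a median of 0.19.

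When the trend on length was removed from each library before the fit, the median of the 82 genes was -0.13, with 68 of 82 below 0, against 50.7% of all genes. The values then ran from -0.67 to 0.53. An unadjusted p under 0.05 was left for 5 genes (6.10%), all lower in the libraries labelled knockout, where 14.8% of all genes passed in either direction and 7.63% on the lower side. Those 5 were Rpl15 (log2 fold change -0.29), Rpl29 (-0.26), Rpl7l1 (-0.29), Rps24 (-0.34) and Rpsa (-0.30). Rps24 and Rpsa were named here after their values were seen. For Rps21 the value was -0.02, so the difference of this abundant gene was about that of other genes with its length. The small subunit had a median of -0.10 and the large subunit -0.13 with the trend removed.

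**Figure D4:**
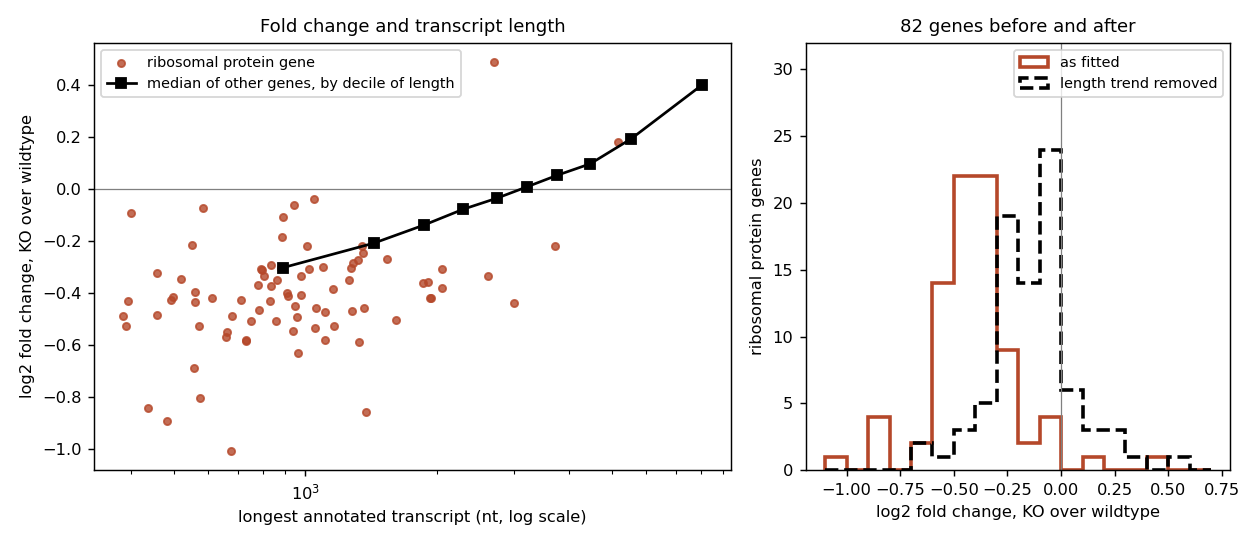
Left, log2 fold change of knockout (KO) over wildtype against the length of the longest annotated transcript (log axis) for the 82 ribosomal protein genes, with the median of the other genes in each decile of length as squares. Right, histograms of the 82 log2 fold changes as fitted and with the length trend of each library removed. Most points lie below the line of squares, and the median of the histogram is -0.41 as fitted and -0.13 with the trend removed.

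The length trend and the ribosomal protein genes both differed between the labels, but the order of the libraries was not the same within a label. The rank correlation of a gene's deviation from its mean with its length was 0.30, 0.31 and 0.34 in the libraries labelled knockout, and 0.00, -0.44 and -0.17 in those labelled wildtype. Ribosomal protein genes deviated by a median of -0.16, -0.29 and -0.10 in knockout and by -0.05, 0.29 and 0.35 in wildtype. Knockout replicate 3 had the strongest length correlation of the knockout libraries and the least lowered ribosomal protein genes. Wildtype replicate 3 had the highest ribosomal protein value with a weaker length correlation than wildtype replicate 2. Wildtype replicates 2 and 3, with length correlations below that of wildtype replicate 1, were those with the high ribosomal protein values, and what part RNA quality or library preparation had in this was not tested.

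A C followed by at least 4 pyrimidines stood at the annotated start in 13 of the 61 ribosomal protein genes with a RefSeq promoter entry (21.3%) and in 2.49% of 27025 promoters, and within 5 bases of it in 28 of 61 (45.9%) and in 18.5%. The median log2 fold change was -0.42 for the 28 genes with such a run, as in the Rpl15 and Rps26 windows, and -0.41 for the 33 without one, as in the Rps28 window. The 21 genes with no entry had -0.40. An unadjusted limma p under 0.05 was reached by 10 of the 28 and 16 of the 33. Of all genes, 20.0% reached it in either direction and 9.20% on the lower side. With the length trend removed the medians were -0.09 for the 28 genes, -0.20 for the 33 and -0.07 for the 21, and -0.02 for the 13 with the run at the start itself. The difference between these groups of genes was not tested. A match describes the letters at an annotated start, which can differ from the start used in the nerve.

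Genes that work with the ribosome had a smaller median difference as fitted, and the order of the lists changed with the length trend removed. Over 197 measured genes of 7 other translation lists, the median log2 fold change was -0.14 and 142 were below 0 (72.1%, against 49.2% of all genes). With the length trend removed the median was -0.07 (-0.13 for the ribosomal protein genes). By limma 0 of 197 passed the adjusted threshold (lowest adjusted p 0.150), and 52 had an unadjusted p under 0.05 (26.4%, against 20.0% of all genes). The authors' deposited table has 10 lower (5.08%) and 4 higher at a false discovery rate under 0.05, where 2.87% of all genes were lower and 3.66% higher. These shares of all genes also stand beside the counts of each list below. The lists overlap in function with ribosomal protein genes, and they were chosen with results of these data known.

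The ribosome-associated and nascent chain factors had 20 of 22 genes below 0 and a median of -0.31, and with the length trend removed 20 of 22 were below 0 with a median of -0.19. Fau, which encodes a ubiquitin-like protein fused to a small-subunit protein, had 381, 383 and 479 in knockout and 491, 654 and 703 in wildtype, without overlap. Rack1, a scaffold on the small subunit, had a log2 fold change of -0.33, and Sec61a1, the channel that takes nascent chains into the endoplasmic reticulum, had -0.17. Of the 22, the authors' deposited table has 4 lower and 0 higher, among them Btf3 (-1.63), Srp14 (-1.44) and Srp9 (-1.39).

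The 17 measured noncoding snoRNA host genes had a median of -0.39, with 13 below 0 and 0 called in the authors' deposited table. Gas5, a host gene whose RNA also begins with a pyrimidine run in mouse, had a log2 fold change of -0.42, and Snhg14, a far longer transcript, had 0.23. The median of the list was -0.08 with the length trend removed.

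Of 42 translation initiation genes, 36 were below 0 with a median of -0.20 (-0.09 with the length trend removed), and the authors' deposited table has 3 lower and 1 higher. Those were Eif4a1 (-1.61), Eif2s2 (-1.42), Eif2b1 (-1.30) and Eif4g3 (1.60). The most abundant, Eif4g2 and Eif4a2, had log2 fold changes of 0.06 and -0.29. Of 14 elongation genes, 9 were below 0 with a median of -0.14 (11 and -0.17 with the length trend removed) and 0 were called in the authors' deposited table. Eef1a1, which delivers tRNA to the ribosome, had -0.34, and Eef2, the translocase, had 0.12.

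As fitted, the remaining lists had medians closer to 0. The 59 ribosome biogenesis genes had a median of -0.08 (-0.05 with the length trend removed), with 43 below 0 and log2 fold changes of 0.01 for both nucleolin (Ncl) and Rrp1. The authors' deposited table has 1 of them lower, Nop10 (-1.64), and 1 higher, Mdn1 (2.12), which are among the shorter and the longer genes at 1109 and 17970 nt. The 21 measured RNA polymerase I genes had a median of -0.05, which turned to 0.05 with the length trend removed, with Ubtf and Rrn3 at 0.06 and 0.11, and the authors' deposited table has Polr1d lower (-1.44). The 22 mTOR and translation control genes had a median of 0.04 with 9 below 0 and Rps6ka3 at 0.04, and with the length trend removed the median turned to -0.12 with 13 below 0. Larp1, which binds pyrimidine starts, had a log2 fold change of 0.44 (limma adjusted p = 0.249). In the authors' deposited table Rheb was lower (-1.41), and Rptor (1.61) and Tsc1 (1.43) were higher. Whether any list differed from the ribosomal proteins was not tested.

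Markers of other cell types also differed between the labels, and their part in the ribosomal protein difference was not tested. All 12 Schwann cell and myelin markers and all 14 spiral ganglion neuron markers were above 0 in every library, as the labelled tissue should show. Schwann cell and myelin sums were 460546 to 556365 in knockout and 458750 to 817903 in wildtype, and neuron sums were 460478 to 557794 in knockout and 327705 to 568186 in wildtype. The 14 red cell markers summed to 2749 to 4043 in knockout and 10886 to 34872 in wildtype, with Epb42 and Rhag at 0 in some libraries. The 15 neutrophil and marrow markers summed to 120 to 831 in knockout and 932 to 2802 in wildtype, with Retnlg, Elane, Ctsg, Ms4a3 and Cebpe at 0 in some libraries. For red cell and marrow markers wildtype replicate 3 was the highest library, as it was for 47 of the 82 ribosomal protein genes and 27.6% of all genes. The 16 lymphocyte markers summed to 3995 to 4361 in knockout and 4024 to 4679 in wildtype, with Cd3g and Igll1 at 0 in some libraries. Osteoblast markers (12 genes) summed to 126239 to 152041 in knockout and 159534 to 336579 in wildtype, muscle markers (12 genes, Myh1 and Myh2 at 0 in some libraries) to 5761 to 6900 in knockout and 2455 to 2735 in wildtype, and hair cell markers (12 genes) to 19417 to 25055 in knockout and 10697 to 24148 in wildtype. The muscle sums are carried by Neb and Ttn, which had log2 fold changes of 1.73 and 1.40, whereas 10 of the 12 muscle markers were below 0 and the median of the list was -1.003. For the osteoblast markers 6 of 12 were below 0 with a median of 0.03.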

How the data were processed

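Per the labels' protocols, total RNA of each auditory nerve sample was purified with the miRNeasy kit, degraded or contaminated samples were excluded, and libraries were made with the TruSeq RNA kit. The submitters' processing notes list TopHat2, Partek and DESeq2 with the build mm10; versions, roles, strand setting and annotation are not stated there. Each deposited value is a score, a gene count that the authors scaled between samples and then rounded to a whole number. They are not raw counts, so no count test was run. The deposited table also has the authors' false discovery rate (2061 genes have none) and a signed fold change of knockout over wildtype, per the file headers.

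Values were transformed as log2(value + 1), which understates the change of low genes, and a minimum mean of 1 was set, which all 17666 genes passed. Limma 3.58.1 in R 4.3.3 fitted the label alone (eBayes, mean trend, two-sided), with p-values adjusted by the Benjamini-Hochberg method over all genes at 0.05; it was tested on simulated data. For a single value, an exact permutation of 3 against 3 cannot go below p = 0.1. Transcript lengths and coordinates came from GENCODE M21 (GRCm38), using the longest protein-coding transcript, or the longest transcript of any kind for genes not annotated as protein coding (Rps4l and Rpl32l among the 82); 17479 genes and 82 of 82 ribosomal protein genes had a length. The length trend was a loess with a span of 0.4 of each library's deviation from the gene mean on log2 length. A level in ppm is a value over transcript length, as a share of the sum of such values in its library.

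Genes named with values are those called in the authors' deposited table, the 4 highest per length and the 2 highest and 2 lowest fold changes in each subunit, the stalk genes, paralogues, and the longest and shortest transcript; others were named after their values were seen. Other translation lists are named by the genes the authors' deposited table calls, a choice made after their values were seen, and by the 2 genes of highest mean. Members and lists were chosen with earlier results of these data known. Alternatives were the pseudocount, the filter, the scaling, the error model, the length trend, a replicate block, and leaving out each library. Some genes that this rule names are left out and not reported here; they are counted in the totals.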

Additional observations from a re-analysis of the deposited data

How the results depend on the processing

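With 3 libraries per label and unknown depth, small differences of single genes could not be resolved, and low genes such as Rpl36a rest on a few counts. The count of ribosomal protein genes past the adjusted threshold was 0 in limma under every alternative, including each left-out library, and 7 in the authors' deposited table. Their median of -0.41 stayed below 0 in every alternative: -0.1253 with the length trend removed, -0.1253 with the replicate block and the trend removed, -0.1273 with the trend on the median transcript (an alternative chosen after seeing the data), and -0.5112 to -0.3204 with 1 library left out. The count of all genes past the threshold was 28, and 16 without a trend on the mean, 111 with sample weights and 1153 in the authors' deposited table. It ran from 0 to 566 with 1 library left out: it was 0 without any 1 of the knockout libraries, 87 without wildtype replicate 1, 2 without wildtype replicate 2 and 566 without wildtype replicate 3. In the 3 settings with 0, the genes at an unadjusted p under 0.05 numbered 2218, 1797 and 1892. In the other translation lists the count of 0 became 3 without wildtype replicate 3. The pseudogene rows' median of -0.29 became 0.05463 with the length trend removed, 0.05463 with the block and trend removed, and 0.04175 on the median transcript. The share of pyrimidine starts was 21.3% at the start and 45.9% within 5 bases.

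Of the values of named genes under the alternatives, 481 kept their direction and side of the threshold and 20 changed sign. With the length trend removed (alone, then on the median transcript), Rps4l was 0.2206 and 0.2006, Rpl41 0.2874 and 0.2713, Rpl13a 0.2207 and 0.2425, and Rpl22l1 0.1533 and 0.1263, and the block with the trend removed gave the first of each pair; Rps15a was -0.04819 on the median transcript. With sample weights Rpl41 was 0.1262 and Rpl13a 0.09332. Single libraries turned Rps4l (0.03409 without knockout replicate 1, lowest -0.1579), Rpl13a (0.002581 without knockout replicate 2, 0.1754 without wildtype replicate 3, lowest -0.1525), Rpl41 (0.2424 without wildtype replicate 3, lowest -0.2444) and Rpl39l (0.2358 without wildtype replicate 2, lowest -0.8617). The cause of these changes was not tested.

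The replicate numbers did not pair the samples: the deviations of same-numbered libraries correlated at -0.06, 0.10 and 0.25 over 14214 genes. With the replicate number as a block, 7 of all genes passed the threshold and 0 ribosomal protein genes, and with the block and the length trend removed 0 of all genes passed, with 1968 at an unadjusted p under 0.05.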
